A study of Mus musculus with 20 samples.

Results

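Foxp1, Foxp2, Bcl11b, Meis2, Rarb, Six3, Zfp503, Ebf1 and Dlx6 are 9 transcription factors of the striatum. They were chosen by name, and their Ensembl identifiers were matched in the count tables of 20 mice, so that 9 of the 39179 genes listed per mouse are described here. Striatal RNA was sequenced from males about 6.5 months old, at generation 17 of a breeding experiment. All mice descended from an intercross of several inbred strains. High-Active mice came from the line selected for distance traveled in the home cage, and Control mice from the line bred without selection. Each mouse received an injection of saline or of 0.25 mg/kg amphetamine, and its tissue was taken 2 hours later. With 2 lines and 2 treatments there were 4 groups of 5 mice: Control with saline, Control with amphetamine, and the same for High-Active. Mice are named by group and animal number. The whole striatum of both sides, dorsal and ventral, was dissected, so every value is a mixture over cell types. The study had 1 selected and 1 unselected line, and selection and random drift cannot be told apart in a difference between them.

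The striatum is built mainly of GABAergic medium spiny neurons, which receive dopamine and cortical glutamate. Those of the direct pathway carry the dopamine receptor Drd1, and those of the indirect pathway carry Drd2. These neurons arise in the lateral ganglionic eminence, where homeodomain factors of the Dlx family, Meis2 and the zinc finger factor Bcl11b (also called Ctip2) are expressed, and many of these factors stay on in the adult neuron. Foxp1 and Foxp2 are forkhead repressors that can bind DNA as a heterodimer. Rarb is a nuclear receptor for retinoic acid. Ebf1 is needed for maturation of direct pathway neurons, Six3 for that of indirect pathway neurons, and Zfp503 (Nolz1) is a zinc finger repressor of the developing striatum. These statements are background and were not tested here.

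Counting gave between 32388971 and 53710713 reads on genes per mouse. The members' own counts ran from 330 for Ebf1 in a Control saline mouse to 16460 for Meis2 in a Control amphetamine mouse, and all 9 members were among the 14792 genes that passed the filter on low counts (3 or more mice above 1 CPM, a gene's counts per 1000000 counts of the library). Siblings were common, with 4 of the 10 Control and 9 of the 10 High-Active mice having a full sibling in the experiment. The 5 markers of medium spiny neurons, among them Ppp1r1b, Rgs9, Pde10a and Adcy5, summed to between 3381 and 5746 CPM in the 20 mice, and none of them was at 0, which fits the labelled tissue. Choroid plexus markers (Ttr, Folr1 and Kl) summed to more than 500 CPM in 4 mice, namely Control saline mouse 469, High-Active saline mice 197 and 871 and High-Active amphetamine mouse 487. Markers of cortical excitatory neurons summed to 296 to 829 CPM in Control saline, 607 to 831 CPM in Control amphetamine, 163 to 342 CPM in High-Active saline and 217 to 968 CPM in High-Active amphetamine mice. Both are given beside the results that they touch.

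Promoter sequences came from RefSeq on GRCm38.p6 and covered the 250 bases before an annotated start. They were found for 7 of the 9 members, with 10 starts in all, and not for Foxp2 and Dlx6. The 4 below belong to the member that differed between the lines (Meis2), to a pair that varied closely together (Bcl11b and Rarb), and to a member that followed these less closely (Six3). They are written 5′ to 3′ on the strand of the gene. Capitals mark the letters of the MEIS motif (TGACAG), the forkhead motif (TGTTTAC) or the homeodomain motif (TAATTA) on either strand, and 2 retinoid half-sites (GTTCA) in the same direction, each counted with the base before it, with 5 bases between these units.
Meis2, chr2:116064620-116064869, minus strand: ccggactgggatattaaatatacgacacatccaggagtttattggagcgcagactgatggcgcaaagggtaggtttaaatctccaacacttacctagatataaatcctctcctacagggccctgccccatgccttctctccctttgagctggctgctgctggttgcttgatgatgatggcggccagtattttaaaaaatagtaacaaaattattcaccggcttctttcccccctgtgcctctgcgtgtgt
Bcl11b, chr12:108003415-108003664, minus strand: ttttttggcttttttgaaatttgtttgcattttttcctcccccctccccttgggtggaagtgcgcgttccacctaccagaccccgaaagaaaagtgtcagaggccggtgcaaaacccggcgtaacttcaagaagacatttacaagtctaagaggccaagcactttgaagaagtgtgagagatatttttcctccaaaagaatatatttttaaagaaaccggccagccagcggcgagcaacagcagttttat
Rarb, chr14:16575477-16575726, minus strand: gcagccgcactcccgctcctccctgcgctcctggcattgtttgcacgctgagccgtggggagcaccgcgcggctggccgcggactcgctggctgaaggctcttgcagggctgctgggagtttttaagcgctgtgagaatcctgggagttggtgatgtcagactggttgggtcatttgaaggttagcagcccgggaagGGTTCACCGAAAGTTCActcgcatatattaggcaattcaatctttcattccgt
Six3, chr17:85620584-85620833, plus strand: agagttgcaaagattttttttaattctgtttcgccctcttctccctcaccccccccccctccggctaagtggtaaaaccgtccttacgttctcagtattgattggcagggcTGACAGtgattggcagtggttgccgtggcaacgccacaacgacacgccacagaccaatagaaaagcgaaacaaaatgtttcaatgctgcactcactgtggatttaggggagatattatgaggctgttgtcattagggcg

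The Rarb promoter held the pair of half-sites, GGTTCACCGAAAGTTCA, whose first base lay 53 bases before the start. Such a pair stood in 22 of 32851 promoters (0.067%), and it is the arrangement known as the retinoic acid response element by which Rarb responds to its own ligand. The Six3 promoter held 1 MEIS motif, which 15.9% of all promoters hold on either strand. Neither Meis2 nor Bcl11b held a match to any of the motifs in this window. Among the other promoters of members, 1 of the 3 Foxp1 starts held 1 MEIS and 1 homeodomain motif, and the Zfp503 and both Ebf1 promoters held none. A forkhead motif stood in no promoter of a member, and in 3.17% of all promoters. The single half-site stood in 30.5% of all promoters and the homeodomain motif in 4.84%. The Foxp1 start with the MEIS motif also held 2 single half-sites, which did not form the spaced pair. No binding or chromatin data go with these matches, and the expression values below do not bear on whether a match is used.

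Levels of different genes were compared only per length, as reads per kilobase of merged exons on the CPM scale (RPKM). Bcl11b was highest, with a mean of 30.9 RPKM ± 4.24 (SD, n = 20 mice), and Meis2 followed with 25.2 ± 3.66. Their ranges overlapped between mice, but Bcl11b stood above Meis2 within each of the 20 mice. Rarb had a mean of 17.7 RPKM ± 2.82, Dlx6 of 15.6 ± 1.55 and Foxp1 of 15.2 ± 2.36, and these did not separate fully, since Rarb was above Dlx6 in 17 mice and Dlx6 above Foxp1 in 9. A gap without overlap followed, down to Six3 with 7.87 RPKM ± 0.875. Zfp503 with 4.92 ± 0.68 and Foxp2 with 4.78 ± 0.597 were not ordered either, as Zfp503 was the higher in 12 of 20 mice. Ebf1, at 1.25 RPKM ± 0.168, lay below every value of the other members. Merged exons include untranslated parts and isoforms that the striatum may not use, which limits this order.

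**Figure D1:**
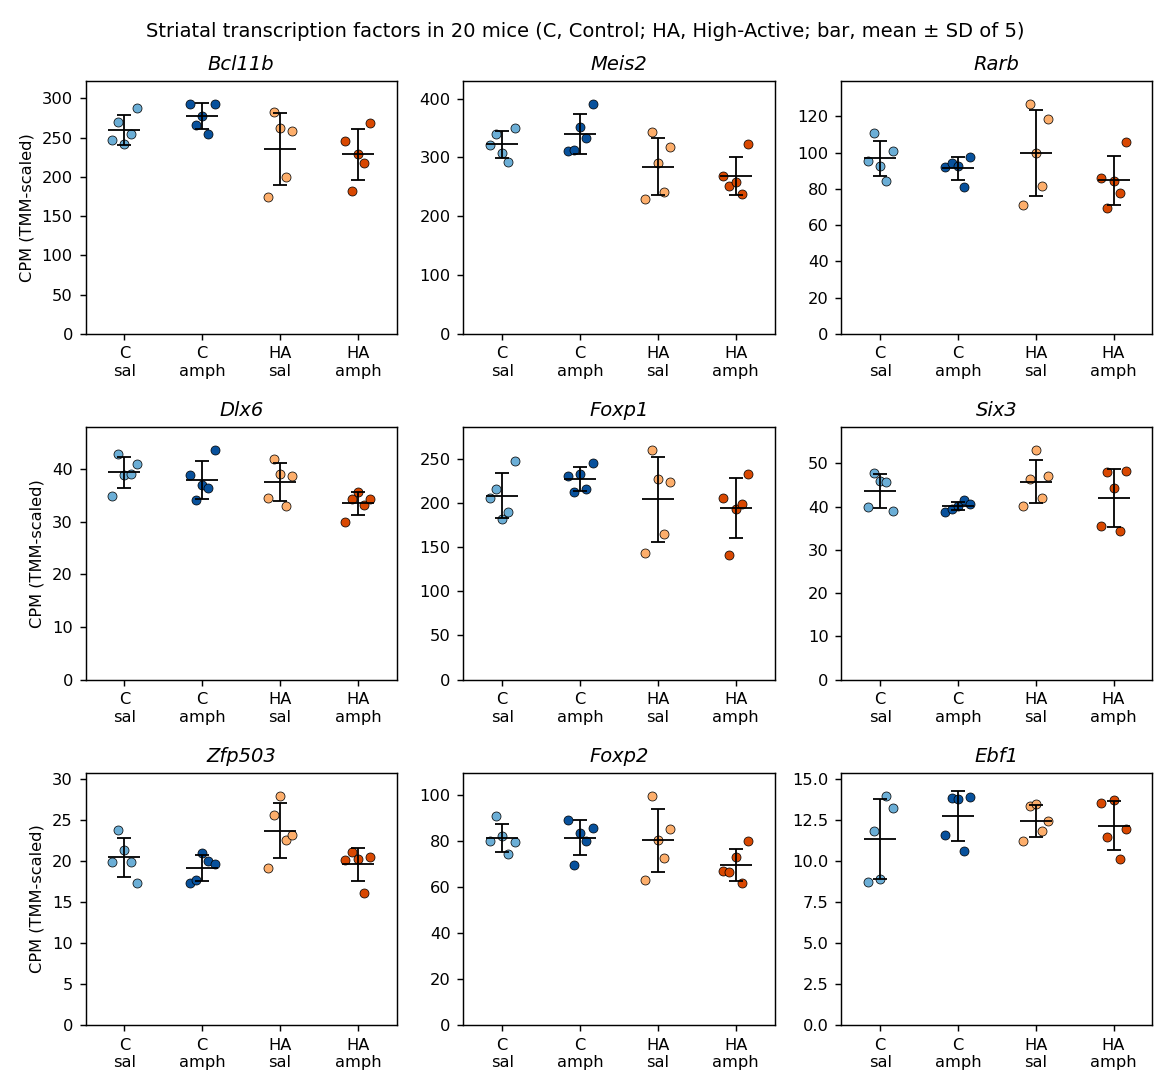
Level of each member in CPM (scaled by TMM factors, axis from 0) in 20 mice, 1 point a mouse, grouped by line and treatment, with the mean and SD of 5 mice; panels follow the order of RPKM. High-Active mice lie lower for Meis2, with 7 of 10 below every Control mouse, and the High-Active points of Bcl11b, Foxp1 and Rarb are more spread than the Control points.

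The first question was whether the members differed between the lines, as an average over both treatments. Meis2, a TALE homeodomain factor, was lower in High-Active mice by 16.6%, and no other member passed the threshold. Across all genes, edgeR's quasi-likelihood test at a false discovery rate (FDR) under 0.1 called 14.5% of 14792, against 1 of the 9 members. The median log2 fold change was -0.12 over the members and 0.00 over all genes, to 2 decimals (-9e-04), with 6 members lower and 3 higher in High-Active mice as estimates. In bulk tissue, fewer cells of a type and less RNA per cell cannot be told apart.

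In Control saline mice Meis2 stood at 293, 307, 320.4, 339 and 351 CPM, and in Control amphetamine mice at 310.4, 312, 333, 352 and 391 CPM. In High-Active saline mice it stood at 229, 242, 290.25, 317 and 343 CPM, and in High-Active amphetamine mice at 238, 252, 258, 269 and 323 CPM. Thus 7 of 10 High-Active mice were below every Control mouse, 9 of 10 were below the Control median, and the 3 highest High-Active mice (483, 886 and 905) lay inside the Control range. The log2 fold change was -0.26 (standard error 0.0737, 95% interval -0.42 to -0.11, adjusted p = 0.0381, edgeR, 10 mice a line). Meis2 (ENSMUSG00000027210) ranked 825 of 14792 by p. It is encoded on the minus strand of chromosome 2 of GRCm38, from 115863064 to 116065839. It was called with every one of the 20 mice left out in turn, with log2 fold changes of -0.30 to -0.23, and also with the counts of siblings summed (-0.26, adjusted p = 0.0576).

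The Meis2 call was lost in the fits with marker covariates and in the fit without 4 mice high in choroid plexus markers. The medium spiny neuron markers were lower as estimates in High-Active mice in 5 of 5 genes, 0 of which were called, with Rgs9, a GTPase accelerator of these neurons, nearest at -0.29 (adjusted p = 0.101). Their sum was 4294 to 5746 CPM in Control and 3381 to 5588 CPM in High-Active mice. With their mean as a covariate, chosen after the values were seen, the Meis2 difference was -0.13 (adjusted p = 0.110). Cortical excitatory markers were lower in 8 of 9 genes as estimates. Of these, 3 were called, namely Slc17a7 (the vesicular glutamate transporter of cortical neurons) at -0.85, Tbr1 at -0.69 and Neurod2 at -0.91. Among glial markers, 2 of 6 oligodendrocyte genes (Mbp at 0.26 and Mobp at 0.33) were called higher in High-Active mice. So were 2 of 5 astrocyte genes (Aldh1l1 at 0.32 and Gja1 at 0.19). The astrocyte genes not called were Slc1a3 at 0.09, Aqp4 at 0.09 and Gfap, in the other direction, at -0.33. Of 4 microglial genes, 1 was called lower, Csf1r at -0.14. These counts stand beside 14.5% of all genes called. With the cortical score as a covariate the Meis2 difference was -0.25 (adjusted p = 0.194), with the oligodendrocyte score added it was -0.22 (adjusted p = 0.283), and without the 4 mice with choroid plexus markers it was -0.19 (adjusted p = 0.179). Over all 11 alternatives the adjusted p ran from 0.0024 to 0.283, and the estimate stayed negative in each. The part of cell composition or dissection in the Meis2 difference was not tested.

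Bcl11b, the zinc finger factor of medium spiny neurons (and of deep cortical neurons), followed Meis2. In Control saline mice it stood at 241, 247, 254, 269.75 and 287 CPM, and in Control amphetamine mice at 255, 266, 278, 292.7 and 293 CPM. In High-Active saline mice it stood at 175, 200.4, 258, 262 and 282 CPM, and in High-Active amphetamine mice at 183, 217, 229, 246 and 269 CPM. So 5 of 10 High-Active mice were below every Control mouse and none was above, while 5 lay within the Control range. The log2 fold change was -0.21 (standard error 0.0799, 95% interval -0.38 to -0.04), and it missed the threshold (edgeR, adjusted p = 0.107). It passed with DESeq2 (adjusted p = 0.069), with a likelihood-ratio test on robust dispersions (0.0756) and with siblings summed (0.0793), within a range of 0.069 to 0.487 over 11 alternatives. With the medium spiny neuron score as a covariate it was -0.06 (adjusted p = 0.436).

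Dlx6, a homeodomain factor of GABAergic neurons, had a lowest, median and highest level of 34.1, 39.0 and 43.7 CPM in Control mice and of 29.9, 34.5 and 42.0 CPM in High-Active mice. The ranges overlapped, with 3 of 10 High-Active mice below every Control mouse. Its log2 fold change, -0.13 with a standard error of 0.0538, missed the threshold (edgeR, adjusted p = 0.141). For Foxp2 the estimate was -0.12 ± 0.0701 (standard error, adjusted p = 0.278), and for Foxp1 it was -0.13 ± 0.0996 (adjusted p = 0.437). Foxp1 ran from 182 to 248 CPM in Control mice and from 141 to 260.2 CPM in High-Active mice, so that the High-Active range enclosed the Control range.

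A single High-Active saline mouse weighed on these counts. Without mouse 483, which had the highest High-Active level of Meis2, Foxp1, Foxp2, Bcl11b, Dlx6 and Rarb, 4 members were called lower in place of 1, namely Meis2, Bcl11b, Foxp2 (adjusted p = 0.0935) and Dlx6 (adjusted p = 0.0832). Without mouse 192, 499, 886 or 905 there were 2 calls, Meis2 and Bcl11b. The share of all genes called in these fits is not given here, so the counts do not single out the members.

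Zfp503 and Six3 had estimates in the other direction. Zfp503 was 19.8 CPM ± 2.01 in Control and 21.7 ± 3.37 in High-Active mice, with a log2 difference of 0.12 ± 0.0706 (standard error, adjusted p = 0.278), and Six3 had 0.07 ± 0.067 (adjusted p = 0.548). With the cortical score as a covariate Zfp503 was at 0.02 and Six3 at -0.05. Ebf1 at 0.04 (adjusted p = 0.839) and Rarb at -0.03 (adjusted p = 0.849) had intervals of -0.15 to 0.22 and -0.23 to 0.16. For these 4 members, and likewise for Foxp1 and Foxp2, the 95% interval included 0, so the data set no direction between the lines.

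**Figure D2:**
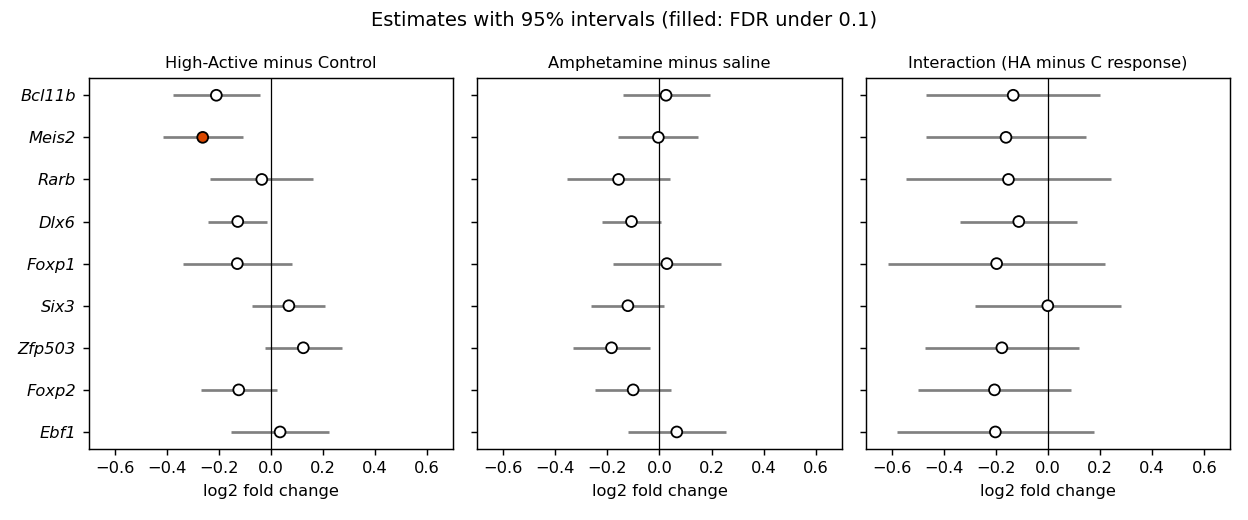
Log2 fold change of each member (point) with its 95% interval (line) from edgeR's quasi-likelihood fit, for High-Active minus Control, for amphetamine minus saline and for their interaction. Meis2 in the first panel, at -0.26, is the one filled point, and all 9 estimates of the interaction lie below 0 with intervals that include it.

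**Figure D3:**
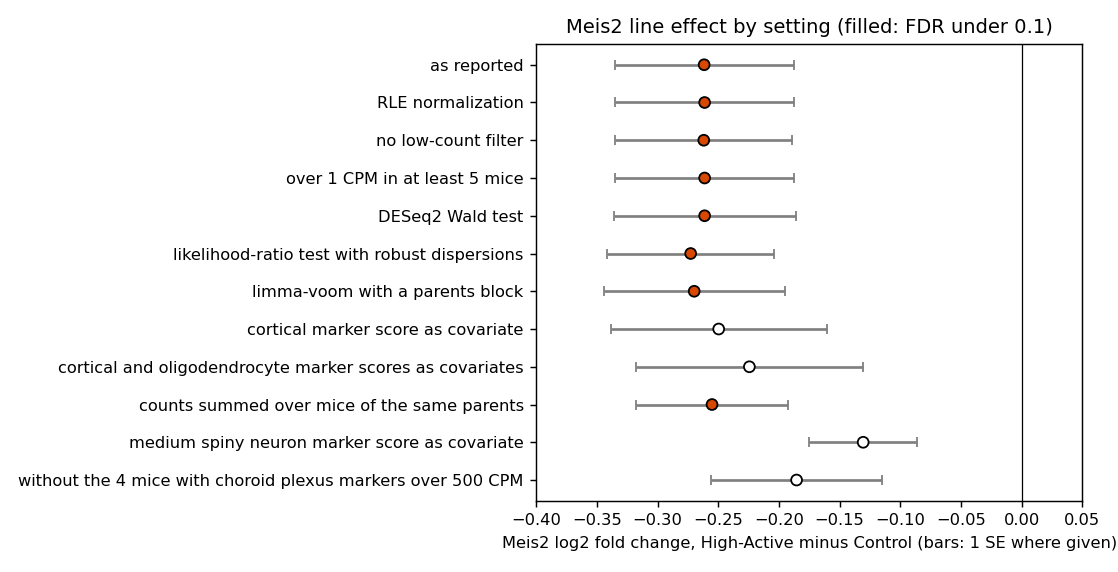
Meis2 log2 fold change between the lines (points) with its standard error (bars) as reported and under 11 alternatives, filled where the FDR is under 0.1. The points run from -0.27 to -0.13, and the 4 open points are the fits with marker covariates and the fit without 4 mice.

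The same question within each treatment gave no member past the threshold. In saline mice, 3.74% of genes were called and 0 of 9 members by edgeR. There 1 member (Zfp503) had an unadjusted p under 0.05, beside 17.4% of all genes. DESeq2, the likelihood-ratio test and limma-voom also called 0 members in saline mice. In amphetamine mice, 1.30% of genes were called and 0 of 9 members. By edgeR, 12.6% of all genes there had an unadjusted p under 0.05, and so did 4 members. These were Meis2 at -0.34 (adjusted p = 0.169), Bcl11b at -0.28 (adjusted p = 0.314), Foxp2 at -0.23 (adjusted p = 0.348) and Dlx6 at -0.18 (adjusted p = 0.325). In saline mice the same members had -0.18, -0.14, -0.02 and -0.07. DESeq2 and the likelihood-ratio test called Meis2 in amphetamine mice (adjusted p = 0.0605 and 0.0138, within 0.0138 to 0.405 over 9 alternatives), and so did the quasi-likelihood test without High-Active amphetamine mouse 905. The estimates were larger in amphetamine mice, yet the test of that difference, the interaction, did not pass for any of them. In amphetamine mice, 4 of 5 High-Active mice were below every Control mouse for Meis2, for Bcl11b and for Foxp1, and in saline mice 3, 2 and 2 of 5 were.

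The second question was whether amphetamine changed the members 2 hours after injection. No member was called over both lines, and 0% of all genes were. With edgeR, 1 member, Zfp503, had an unadjusted p under 0.05, beside 12.5% of all genes. DESeq2, the likelihood-ratio test and limma-voom called 0 members. Zfp503 stood at 17.4, 19.9, 19.9, 21.3 and 23.8 CPM in Control saline mice and at 17.3, 17.8, 19.7, 20.0 and 21.1 CPM in Control amphetamine mice. In High-Active saline mice it stood at 19.1, 22.6, 23.2, 25.7 and 28.0 CPM, and in High-Active amphetamine mice at 16.2, 20.1, 20.4, 20.5 and 21.1 CPM. The treatments overlapped in both lines, although 4 of the 5 High-Active saline mice lay above all 5 High-Active amphetamine mice. The log2 fold change was -0.18 (standard error 0.0706, 95% interval -0.33 to -0.04, adjusted p = 0.295).

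The other estimates of the drug effect were -0.16 for Rarb, -0.12 for Six3, -0.11 for Dlx6 and -0.10 for Foxp2, with adjusted p values from 0.425 to 0.592, and the intervals of these 4 reached above 0. Foxp1, Bcl11b, Meis2 and Ebf1 had unadjusted p values of 0.47 or more. The 95% interval was -0.16 to 0.15 for Meis2 and -0.14 to 0.19 for Bcl11b. In the same contrast the cortical markers had higher estimates after amphetamine in 8 of 9 genes, 0 of them called and 8 with an unadjusted p under 0.05. With the cortical score as a covariate Zfp503 was at -0.05 and Six3 at 0.02, while Rarb was at -0.21. Their part in the Zfp503 estimate was not tested.

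Within the lines, amphetamine gave 0% of genes called in Control and 0% in High-Active mice, and 0 members in either by edgeR, DESeq2, the likelihood-ratio test or limma-voom. In Control mice 0 members had an unadjusted p under 0.05 by edgeR, beside 6.35% of all genes. In High-Active mice 2 members did, beside 8.43% of all genes, namely Zfp503 at -0.27 (adjusted p = 0.431) and Dlx6 at -0.16 (adjusted p = 0.568). All 9 estimates were negative in High-Active mice, with a median of -0.12, against 4 of 9 in Control mice, with a median of 0.00. All genes had a median of -0.01 and 0.00 in these comparisons. Both treatments occurred among the offspring of 6 pairs of parents, 4 of them High-Active. Dlx6 was lower after amphetamine in 5 of the 6 families and in 4 of 4 High-Active ones, by as little as 0.01 and at most 0.33 on the log2 scale. Rarb was lower in 5 of 6, Zfp503, Foxp2, Bcl11b and Meis2 in 4 of 6, Foxp1 and Six3 in 3 of 6 and Ebf1 in 2 of 6.

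The third question was whether the lines responded differently. The interaction, the High-Active response minus the Control response, called 0% of genes and 0 members by edgeR, DESeq2, the likelihood-ratio test or limma-voom. By edgeR, 0 members had an unadjusted p under 0.05, beside 2.97% of all genes. All 9 estimates were negative, from -0.21 for Foxp2 to 0.00 for Six3 (-0.0011), with a median of -0.16 against 0.00 over all genes (0.0012). Unadjusted p values ran from 0.158 to 0.994, with an adjusted p of 1 for each in edgeR's quasi-likelihood test. The members are measured in the same 20 mice and vary together, so that 9 estimates of one sign are not 9 separate observations. The medium spiny neuron markers likewise had negative estimates in 5 of 5 genes, with a median of -0.19. Standard errors of the interaction were 0.11 to 0.20, which left wide 95% intervals with 5 mice per group, such as -0.61 to 0.22 for Foxp1 and -0.50 to 0.09 for Foxp2.

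How the members varied among mice of the same group was then described, after subtracting each group's mean from log2 CPM. The 20 values share their libraries, and levels in CPM depend on one another within a library, so these correlations carry no test. Foxp1 and Bcl11b followed each other closely, with a Pearson's r of 0.966 over 20 mice, and each was the other's nearest gene among 14791 compared. Bcl11b and Rarb had r = 0.907, and Rarb had r = 0.881 with both Foxp1 and Meis2. In all, 8 of 36 pairs were above 0.8, none was negative, and the median was 0.50. These 8 pairs lay among Foxp1, Bcl11b, Rarb, Meis2 and Foxp2.

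These 5 members also followed the summed medium spiny neuron markers, with r = 0.925 for Bcl11b, 0.908 for Rarb, 0.887 for Foxp1, 0.872 for Meis2 and 0.762 for Foxp2. The gene nearest to Rarb was Drd1 (r = 0.942), the dopamine receptor of the direct pathway. With the summed markers of the 2 pathways, Rarb had r = 0.858 (direct) and 0.852 (indirect). The gene nearest to Meis2 was Gng7 (r = 0.913), a G protein subunit abundant in the striatum. For Foxp2 it was Ogt (r = 0.884), the enzyme that adds O-linked N-acetylglucosamine. High-Active mice 197, 415 and 871 were the 3 lowest for Foxp1, for Bcl11b and for the medium spiny neuron sum, 2 of them among the mice with choroid plexus markers above 500 CPM.

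Six3 and Zfp503 followed these 5 members less closely than each other. Their r with each other was 0.755, against 0.087 (Foxp1) to 0.494 (Foxp2) for Six3 and 0.264 (Foxp1) to 0.603 (Foxp2) for Zfp503. Both ran against the summed cortical markers, with r = -0.748 for Six3 and -0.628 for Zfp503, while the 5 members had values there from -0.248 for Foxp2 to 0.26 for Foxp1. The nearest genes were Slco5a1 (r = 0.843) for Zfp503 and 1700109H08Rik (r = 0.862) for Six3. Dlx6 had r = 0.686 with Foxp2 and 0.62 with Meis2. Among the marker sums its highest r values were 0.676 with microglial and 0.663 with medium spiny neuron markers, and its nearest gene was Calcoco1 (r = 0.796). Ebf1, the lowest member, had no r above 0.454 with another member, and its nearest gene was the ribosomal pseudogene Rpl9-ps6 (r = 0.814), whose reads may belong to copies of the same sequence.

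**Figure D4:**
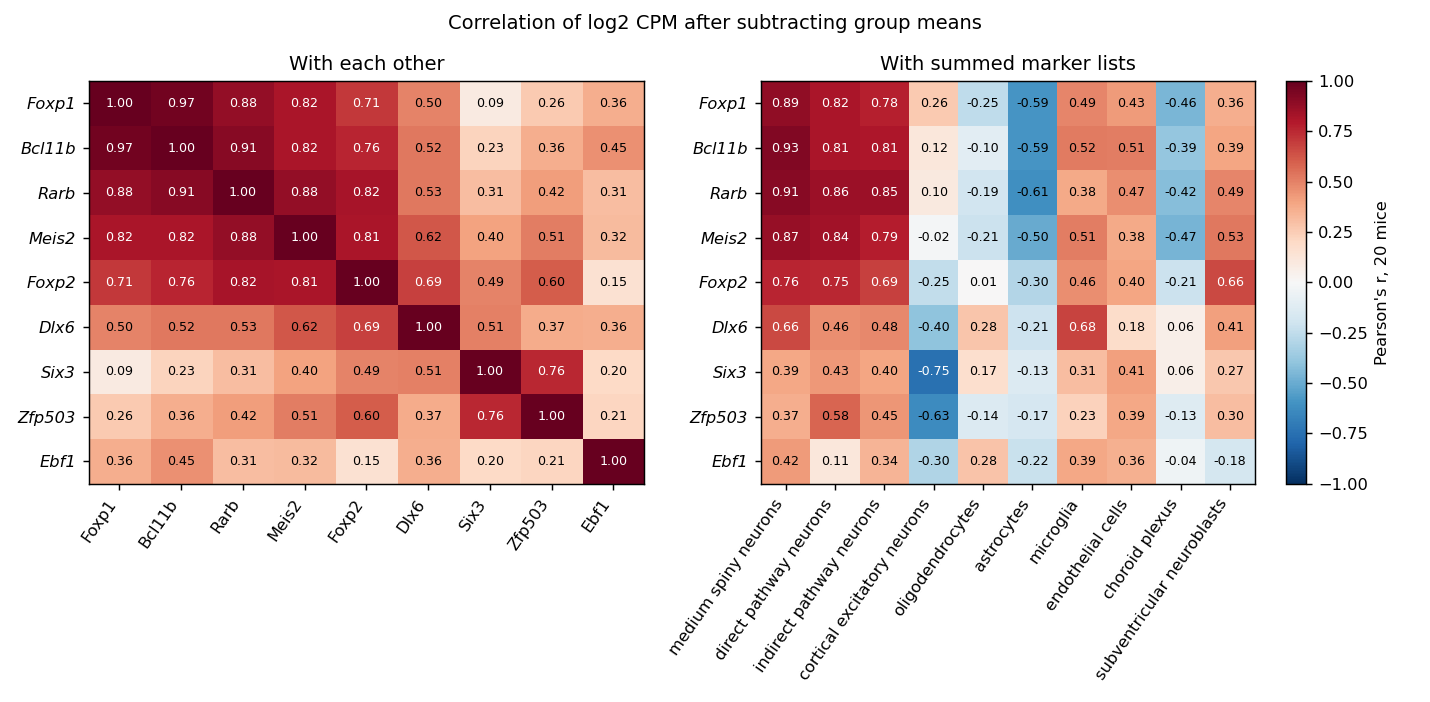
Pearson's r over 20 mice of log2 CPM after subtracting group means, between the 9 members (left) and between members and the summed CPM of marker lists (right), with a color scale from -1 to 1. A block of Foxp1, Bcl11b, Rarb, Meis2 and Foxp2 shows values of 0.71 to 0.97, and Six3 and Zfp503 show -0.75 and -0.63 with cortical markers.

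**Figure D5:**
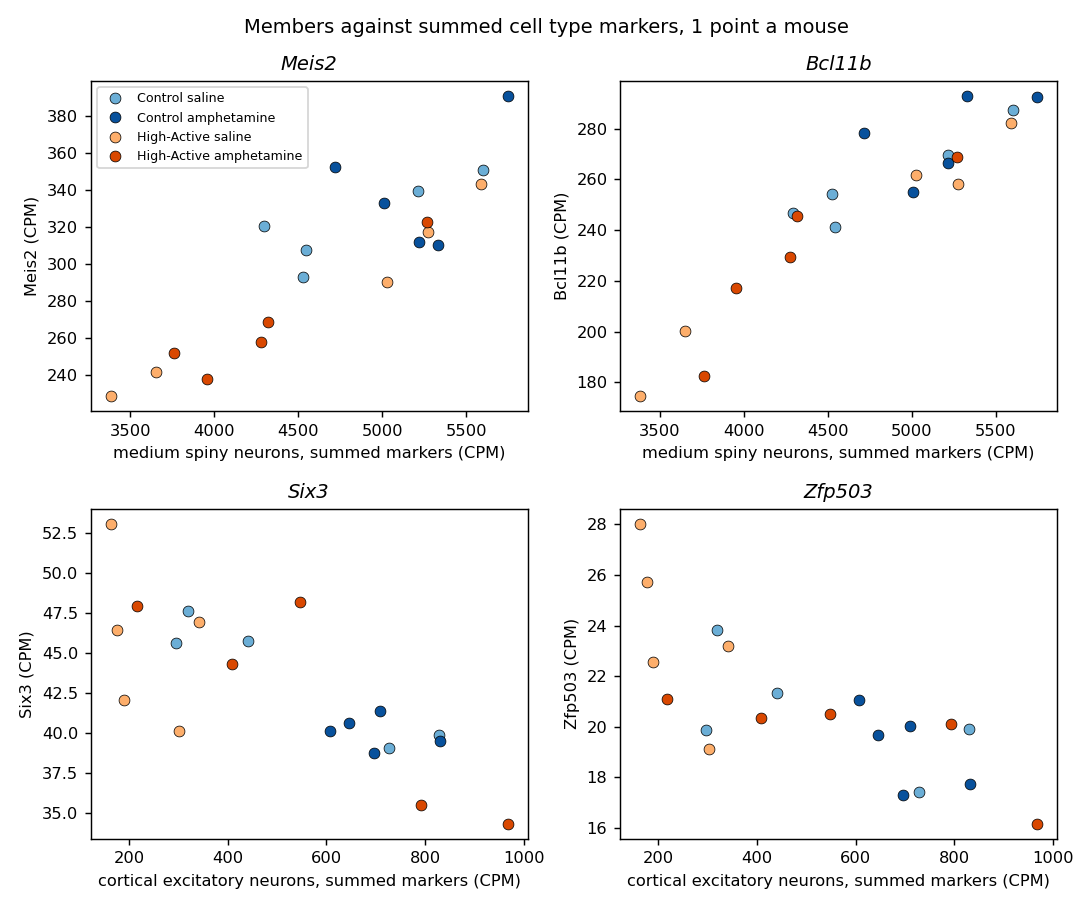
CPM of Meis2 and Bcl11b against summed medium spiny neuron markers, and of Six3 and Zfp503 against summed cortical excitatory neuron markers, 1 point a mouse in the color of its group; the axes do not start at 0. Meis2 and Bcl11b are higher at higher spiny neuron sums, which run from 3381 to 5746 CPM, and Six3 and Zfp503 are lowest in High-Active amphetamine mouse 872, at a cortical sum of 968 CPM.

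Spread within groups was larger in High-Active than in Control mice for 7 of the 9 members. The ratio of the SDs of log2 CPM was 2.69 for Bcl11b, 2.34 for Rarb, 2.31 for Foxp1, 2.11 for Six3 and 1.74 for Meis2. Over all genes tested, 60.2% had the larger SD in High-Active mice, with a median ratio of 1.11 against 1.74 over the members. Ebf1 went the other way with 0.578, and Dlx6 had 0.979. Since the members vary together, these ratios are largely repeated views of the same mice, and they are given as a description.

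Related genes were followed in lists. Of 28 paralogs and binding partners, 22 passed the filter, and 1 was called between the lines, Six4, a homeodomain relative of Six3. Six4 was low, at 0.749 CPM ± 0.15 in Control and 1.36 ± 0.365 in High-Active mice (SD, n = 10 each), a log2 difference of 0.86 ± 0.173 (standard error, adjusted p = 0.00672). The filter asks for more than 1 CPM in at least 3 mice, and the Control mean lay below 1 CPM. Six4 may thus have entered the test only through the line where it was higher, which limits this call. The median of the list was -0.02. Per length, paralogs lay below some members and above others. Bcl11a stood at 5.74 RPKM against 30.9 for Bcl11b, and Meis3 at 10.8 and Meis1 at 1.54 against 25.2 for Meis2. In contrast, as means, Foxp4 at 7.01 RPKM stood above Foxp2 at 4.78, Zfp703 at 6.17 above Zfp503 at 4.92, and Ebf4 at 3.94 above Ebf1 at 1.25. For the retinoid receptors, the order of the means was Rxrg at 37.1 RPKM, Rarb at 17.7, Rxrb at 16.2, Rxra at 6.73, Rarg at 3.14 and Rara at 1.56. Rarb and Rxrb were not separated, since the SD of Rarb was 2.82 and its lowest mouse, at 13.2 RPKM, lay below the Rxrb mean.

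Of 12 genes of the retinoic acid pathway, on which Rarb depends for its ligand, 10 were tested and 2 were called between the lines, both higher in High-Active mice, beside 14.5% of all genes. Aldh1a1, a dehydrogenase that makes retinoic acid and marks a group of dopamine neurons, was 18.3 CPM ± 5.02 in Control and 30.1 ± 7.29 in High-Active mice, a log2 difference of 0.72 ± 0.149 (standard error, adjusted p = 0.00806). Rdh10, the retinol dehydrogenase before it, rose by 0.19 (standard error 0.0476, adjusted p = 0.0244). Of the 8 not called, 5 had positive and 3 negative estimates, such as Dhrs3 at -0.16 (adjusted p = 0.147) and Crabp2 at -0.31 (adjusted p = 0.299). Rarb itself was at -0.03 (95% interval -0.23 to 0.16), and a link between these genes and Rarb was not tested. The list's median was 0.07.

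Of 10 other factors of the striatal lineage, 8 were tested and 0 called by edgeR's quasi-likelihood test. Of these, 1 had an unadjusted p under 0.05, beside 26.1% of all genes. Of 6 factors of the interneuron lineage, 2 were called, among them Sox6 at 0.17 (adjusted p = 0.0578).

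Antisense transcripts overlap or adjoin Six3 and Dlx6. Six3os1 was 18.2 CPM ± 1.92 in Control and 21.6 ± 4.12 in High-Active mice, a log2 difference of 0.24 ± 0.0888 (standard error, adjusted p = 0.0987). Of the 3 antisense transcripts followed, 1 of which belongs to a Dlx gene that is not a member, only Six3os1 was called. Over mice, Six3 and Six3os1 followed each other (r = 0.842). Dlx6 and Dlx6os1 did not (r = 0.005), while Dlx6 and its neighbour Dlx5 had r = 0.598. Libraries were prepared with a strand-keeping kit, but the strand setting of the counting is not given in the sources used here, so reads of a gene and its antisense partner may not be fully told apart.

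With edgeR's quasi-likelihood test, genes within 1 Mb of a member that passed the filter were also compared between the lines, against the background of 14.5%. For Meis2 1 of 6 was called, the predicted gene Gm13991, lower in High-Active mice. For Foxp1 it was 1 of 6 (Mitf, higher), and for Six3 it was 2 of 9 (Six3os1, higher, and Prkce, lower). None was called beside Foxp2 (of 1), Bcl11b (of 14), Zfp503 (of 7), Dlx6 (of 9), Rarb (of 5) or Ebf1 (of 8).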

How the data were processed

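Total RNA of the striatum was sequenced by the authors as paired reads from stranded libraries pooled over lanes. Per the labels, reads were processed with CASAVA 1.8.2, TopHat2 2.0.10, Bowtie2 2.1.0, SAMtools 0.1.19 and HTSeq 0.6.1 on GRCm38. The deposited values are whole-number counts of reads per Ensembl gene, not normalized. The summary lines of each table (reads on no gene, ambiguous or not unique) were left out.

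Groups came from the sample labels. The members and the gene lists were chosen with earlier results of these data known. Counts were scaled by TMM factors, and genes over 1 CPM in at least 3 mice were compared by edgeR 4.0.16 (R 4.3.3; glmQLFit and glmQLFTest) with 1 coefficient per group (4 groups), with Benjamini-Hochberg adjustment over 14792 genes and a threshold of 0.1. Residual degrees of freedom were 16. The line effect was averaged over treatments and the drug effect over lines. Log2 CPM used a prior count of 2. RPKM divided CPM by the merged exon length of GENCODE M21 on GRCm38. The procedure was tested on simulated counts, for the line effect only. These counts were drawn independently for each gene and mouse, without siblings or shared cell composition, so the test cannot speak for either. Members were all named; of each other list, the genes called between the lines, at most 4, or otherwise the one with the smallest p; and for each member the gene with the highest r. Some genes that this rule names are not reported here. Members of other lists given for their role (retinoid receptors, Bcl11a, Meis1, Meis3, Foxp4, Zfp703, Ebf4, Dhrs3, Crabp2, Dlx5, Dlx6os1) and called neighbours were named in addition, after their values were seen.

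Alternatives were RLE scaling, no filter, a filter on 5 mice, DESeq2 1.42.0, a likelihood-ratio test, limma 3.58.1 (voom) with parents as a block, parents as a fixed term, siblings summed, the 2 groups alone, marker covariates, and each mouse left out. The mice are separate animals, many of them siblings.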

Additional observations from a re-analysis of the deposited data

Results flagged for a closer look

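The level of each member in each group of 5 mice was checked for a single mouse far from the others, in 36 checks. In 1 of them a mouse stood out, Zfp503 in High-Active amphetamine mouse 872. Its 16.17 CPM lay below the next mouse at 20.12 CPM, a gap of 0.821 of the group's range on the log2 scale. Chance marks about 1 in 20 groups in this way. The same mouse had the highest summed cortical markers of all 20, 968 CPM, whose part in the low value was not tested.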

How the results depend on the processing

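Of the 11 alternatives for the line effect, 4 left the number of members called at 1. DESeq2, the likelihood-ratio test and siblings summed gave 2, and the covariates cortical score, cortical with oligodendrocyte score and medium spiny neuron score, as well as the fit without 4 mice with choroid plexus markers, gave 0. The last 2 were chosen after seeing the data. Leaving out 1 mouse gave 1 to 4. In amphetamine mice the line effect gave 1 with DESeq2 and with the likelihood-ratio test, and 0 to 1 with 1 mouse left out. The other counts stayed at 0 in every setting run. The cause of these changes was not tested, and the numbers of all genes called between the lines also moved, from 422 with both scores to 2810 with DESeq2.

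Estimates that turned sign were not called. Between the lines these were Foxp1 with the medium spiny neuron score (0.0494), Six3 with the cortical score (-0.0531) and with both scores (-0.0319), Rarb with the cortical score (0.0045), both scores (0.0307), the medium spiny neuron score (0.1373) and without 4 mice (0.0619), and Ebf1 with the cortical score (-0.0295) and both scores (-0.0611). With 1 mouse left out, Rarb ran from -0.086 to 0.0137 and Ebf1 from -0.0054 to 0.0763. For the drug effect these were Zfp503 with both scores (0.0085) and Six3 with the cortical score (0.0239) and both scores (0.048). The groups share no replicate numbers, so mice were paired only by parents. With parents as a fixed term, where the 6 families with both treatments carry the effect, 0 members were called for the drug effect. The members had at least 330 counts in every mouse, and the part of depth was not tested.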
